A study of Homo sapiens with 12 samples.

Results

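The genes described here are 59 drivers and markers of the cell division cycle, in 2 sets: 25 act at the G1/S transition and 34 act in G2 and mitosis. They were found by symbol: a probe set was taken where the array annotation gave it 1 gene symbol and that symbol was one of the 59. This gave 129 probe sets of 54675 on the array, of which 117 were bright enough to be tested, against 32768 tested probe sets in all. All 59 genes kept at least 1 tested probe set, and each gene is represented by its brightest one, which makes them 59 of 13952 genes tested.

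The arrays were hybridised with RNA of 293T cells, a human embryonic kidney line that carries the SV40 large T antigen. Transient transfection used polyethylenimine, collection followed after 48 hours, and each array took 12 micrograms of total RNA, biotin-labelled. There were 3 groups of 4 biological replicates: a vector expressing the CU1276 hairpin, a vector for the tRNA chr1.tRNA68-Gly(GCC), and an empty vector; CU1276 is a small RNA known to be derived from a tRNA. All 3 groups thus share the cell line, the transfection and the time, and the labels do not say what arrays with the same replicate number have in common. Below, the groups are called hairpin, tRNA and empty arrays, and 4 values listed for a group are arrays 1 to 4.

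In G1, cyclin D with CDK4 or CDK6 and cyclin E with CDK2 phosphorylate the retinoblastoma protein, which releases E2F factors that transcribe genes for nucleotide and DNA synthesis. Later in the cycle the MuvB complex with B-MYB, and then FOXM1, switch on the mitotic genes, many of them through a CHR element and nearby CCAAT boxes in the promoter, and the same elements hold these genes down in resting cells. Mitosis itself is driven by cyclin B with CDK1, by the Polo and Aurora kinases and by the spindle checkpoint, until the anaphase-promoting complex destroys the cyclins and securin. In 293T cells the large T antigen binds both the retinoblastoma protein and p53, so E2F targets are transcribed without the usual restraint.

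Promoters of the 2 sets differed in the motifs they held. RefSeq promoter windows (build GRCh38.p14, 250 bases before the start of a gene to 50 after it) were at hand for 46 of the 59 genes, 19 of the G1/S set and 27 of the G2/M set. Each window was searched on both strands for an E2F site (TTTCCCGC, TTTGGCGC, TTTCGCGC or TTTGCCGC), a CHR element (TTTGAA) and a CCAAT box (CCAAT). An E2F site lay in 7 of 19 G1/S promoters (36.8%) and 3 of 27 G2/M promoters (11.1%), against 3.31% of all 35116 promoters in the table. A CHR element lay in 17 of 27 G2/M promoters (63.0%) and 2 of 19 G1/S promoters (10.5%), against 15.2% of all promoters. A CCAAT box lay in 20 of 27 G2/M promoters (74.1%) and 8 of 19 G1/S promoters (42.1%), against 34.6% of all, and 14 G2/M promoters (51.9%) held both a CHR element and a CCAAT box, against 5.90% of all. A match is a run of letters and not a proven binding site, and no test was made of these shares. Motifs of different kinds overlapped in 1 case, in MKI67, where a CHR element runs into a CCAAT box on the other strand.

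**Figure D1:**
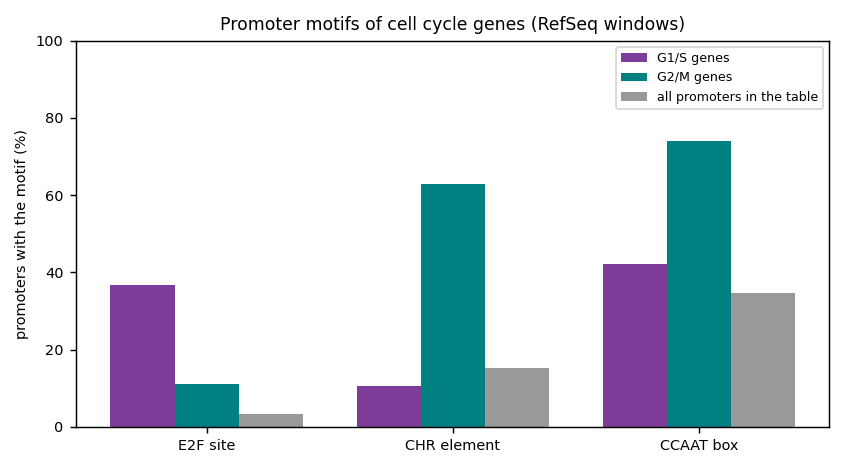
Share of promoters (percent, vertical axis) that held an E2F site, a CHR element or a CCAAT box, as bars for the 19 G1/S genes, the 27 G2/M genes and all 35116 promoters of the RefSeq table. E2F sites stand out in the G1/S bars (36.8%), and CHR elements (63.0%) and CCAAT boxes (74.1%) in the G2/M bars.

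The 250 bases before the start are printed for 5 genes, each read 5′ to 3′ on its own strand, with the searched motifs in capitals. E2F3 and CDC25A each hold an E2F site and are among the genes with an unadjusted p under 0.05 between vectors. E2F7, also among those genes, holds none. E2F3 also holds a CHR element and 4 CCAAT boxes, which makes it 1 of the 2 G1/S promoters with both of these motifs. CCNB2 and MKI67 hold CHR elements and CCAAT boxes and belong to genes that differed among replicate numbers. Of the other G2/M genes that differed so, NDC80 and INCENP hold a CHR element, and CCNA2, CCNB1, AURKB and MYBL2 do not. INCENP had the largest log2 fold change of the set by brightest probe set. E2F3 is shown from chr6:20401629-20401878 on the plus strand, CDC25A from chr3:48188418-48188667 on the minus strand, CCNB2 from chr15:59104896-59105145 on the plus strand, MKI67 from chr10:128126424-128126673 on the minus strand and INCENP from chr11:62123761-62124010 on the plus strand.
E2F3: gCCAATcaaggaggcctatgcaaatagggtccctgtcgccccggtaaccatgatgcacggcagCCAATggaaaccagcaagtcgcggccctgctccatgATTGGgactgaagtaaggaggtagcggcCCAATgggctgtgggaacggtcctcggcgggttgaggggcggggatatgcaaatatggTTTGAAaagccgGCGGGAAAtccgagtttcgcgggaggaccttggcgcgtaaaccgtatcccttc
CDC25A: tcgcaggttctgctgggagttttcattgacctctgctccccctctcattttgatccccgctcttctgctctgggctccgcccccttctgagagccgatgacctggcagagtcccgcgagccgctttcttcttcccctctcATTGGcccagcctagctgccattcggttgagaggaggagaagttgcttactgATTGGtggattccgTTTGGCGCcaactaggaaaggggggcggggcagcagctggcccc
CCNB2: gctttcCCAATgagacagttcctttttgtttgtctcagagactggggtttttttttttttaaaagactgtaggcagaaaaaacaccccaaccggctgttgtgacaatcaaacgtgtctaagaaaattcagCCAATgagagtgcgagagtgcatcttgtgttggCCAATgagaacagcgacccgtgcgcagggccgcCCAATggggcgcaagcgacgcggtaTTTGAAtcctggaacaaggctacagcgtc
MKI67: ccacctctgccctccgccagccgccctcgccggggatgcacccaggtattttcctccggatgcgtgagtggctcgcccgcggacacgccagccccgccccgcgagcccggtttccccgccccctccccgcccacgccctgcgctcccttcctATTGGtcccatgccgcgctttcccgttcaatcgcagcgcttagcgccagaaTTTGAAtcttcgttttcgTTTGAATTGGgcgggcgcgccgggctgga
INCENP: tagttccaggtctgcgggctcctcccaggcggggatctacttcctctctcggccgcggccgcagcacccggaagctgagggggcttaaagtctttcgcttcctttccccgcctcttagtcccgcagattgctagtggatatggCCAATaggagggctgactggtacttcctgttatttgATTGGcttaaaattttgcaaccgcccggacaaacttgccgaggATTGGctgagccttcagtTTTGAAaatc

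The deposited values are MAS5 signals, a linear intensity per probe set, scaled by the authors so that each array had a 2% trimmed mean of 500.1; the number of arrays limits their precision. Array medians lay between 75.9 and 104. All 8 genes taken to define 293T cells passed the filter on dim probe sets, with a summed signal of 29469.7 to 33839.7 on hairpin arrays, 32054 to 35974 on tRNA arrays and 28531 to 32524 on empty arrays. VIM had a median signal of 21430 over all arrays and made up most of this sum, whereas PAX2, LGR5, KRT8 and PAX8 had medians of 139 to 291. Of the fibroblast markers, 6 of 7 passed, led by COL1A1, with sums of 948 to 1437 on hairpin arrays, 992 to 1293 on tRNA arrays and 882 to 1495 on empty arrays. COL1A1 had a median signal of 782 over all arrays and made up most of these sums. The other markers that passed had medians of 58.2 to 71.3, below the median signal of every array. Of the B cell and leukocyte markers 2 of 4 passed, PTPRC and MS4A1 not among them, and of the erythroid markers 1 of 2. All of these sums overlapped between the 3 groups.

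The comparison of each vector with the empty one asks whether cell cycle transcripts differed in cells given the hairpin or the tRNA gene, and no gene of either set passed the test. With limma and Benjamini-Hochberg adjustment at 0.05, 0 of 59 genes were called for the tRNA vector against the empty vector, 0 for the hairpin vector against the empty vector and 0 for the hairpin vector against the tRNA vector. The share of all 13952 genes called was 0% in each of the 3 comparisons. At an unadjusted p under 0.05 there were 2 of 59 genes for tRNA against empty, where 4.26% of all genes had such a p, 3 for hairpin against empty, where 2.74% had, and 5 for hairpin against tRNA, where 4.56% had. The groups of 4 arrays did not overlap in 2, 3 and 2 of the 59 genes in the same order of comparisons, against 2.94%, 2.33% and 3.24% of all genes. All of these counts are small, at most 5 of 59 genes, and they were not tested against the shares of all genes. Over the 117 tested probe sets, 3, 4 and 6 had an unadjusted p under 0.05 in the same order, against 3.78%, 2.65% and 3.88% of all probe sets; those that do not stand for their gene belong to CCNA2 and CDK1 and are described with these genes. All other rankings of genes by p rest on the brightest probe set. Since 2 comparisons share the empty arrays and 2 share the tRNA arrays, they are not independent of each other.

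The sizes were small as well. For tRNA against empty, 29 of 59 genes were higher and 30 lower, with a median log2 fold change of -0.0018, against 0.0030 over all genes. For hairpin against empty, 25 were higher and 34 lower, with a median of -0.011 against 0.0042. For hairpin against tRNA, 30 were higher and 29 lower, with a median of 0.0035 against 0.0028. The G1/S and G2/M sets stood on opposite sides of 0 by hundredths of a log2 unit, with medians of 0.022 and -0.017 for tRNA against empty, 0.012 and -0.028 for hairpin against empty, and 0.027 and -0.015 for hairpin against tRNA. With fewer arrays or other settings 4 of these 6 medians crossed 0, so no direction is settled; those that did not were G2/M for hairpin against empty and G1/S for hairpin against tRNA. The cell cycle probe sets were measured with a smaller error than most, a median standard error of 0.10 on the log2 scale against 0.16 over all genes. The 95% interval of the log2 fold change lay within 0.5 on either side of 0 for 55 of 59 genes in tRNA against empty, 56 in hairpin against empty and 55 in hairpin against tRNA, against 53.3%, 54.8% and 53.6% of all genes. The genes whose interval reached past that bound were INCENP and FZR1 in all 3 comparisons, CCND1 and AURKB in both comparisons that involve the tRNA vector, and E2F2 in hairpin against empty. In bulk RNA, fewer cells in a phase of the cycle and less RNA per cell cannot be told apart.

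**Figure D2:**
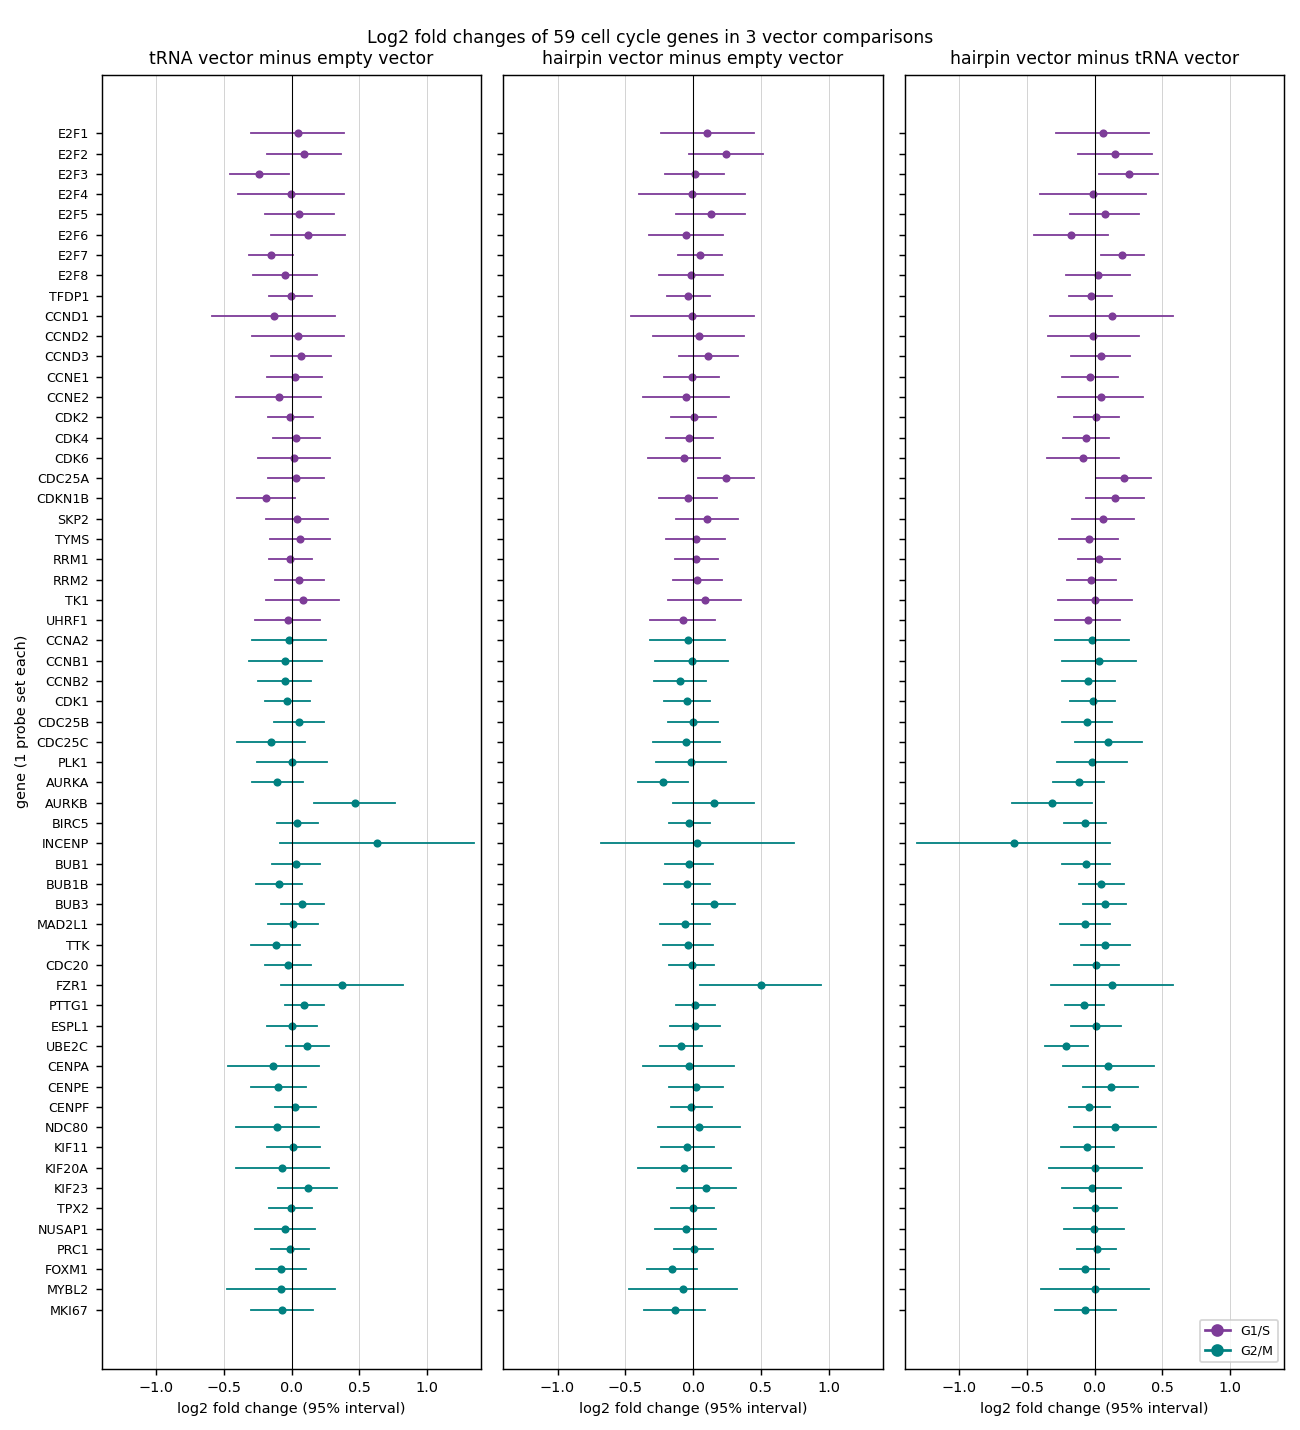
Log2 fold change (horizontal axis) of 59 cell cycle genes, 1 row each, in tRNA against empty, hairpin against empty and hairpin against tRNA; points are estimates from 4 arrays a group, lines their 95% intervals, G1/S genes in purple and G2/M genes in green. Most intervals cross 0 and stay within 0.5 of it; INCENP has the widest, from -0.085 to 1.34 in tRNA against empty.

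Among the activating E2F factors, which drive the G1/S program, E2F3 had the smallest p. E2F3 had signals of 1808, 1722, 1564 and 1891 on hairpin arrays, 1496, 1419, 1631 and 1329 on tRNA arrays and 1532, 1770.0, 1672 and 1962 on empty arrays. Its tRNA arrays were low, with only array 3 above the lowest array of each other group. The log2 fold change was -0.24 ± 0.10 (SE) for tRNA against empty (unadjusted limma p = 0.0345, exact permutation p = 0.0571) and 0.25 ± 0.10 for hairpin against tRNA (p = 0.0274, exact permutation p = 0.0571). The difference between tRNA and empty arrays was -0.035 within number 1, -0.32 within number 2 and -0.30 over numbers 3 and 4. Numbers 3 and 4 were unlike: tRNA array 3 lay close to empty array 3 (1631 against 1672), and tRNA array 4 far below empty array 4 (1329 against 1962). A second, less precise E2F3 probe set pointed the same way, at -0.23 ± 0.45 and 0.12 ± 0.45. The E2F1 signal was 465, 612, 569 and 657 on the hairpin arrays, against 469.6, 503, 639 and 599.8 on the tRNA arrays and 582, 654, 458 and 457 on the empty arrays. The 3 groups of E2F1 overlapped fully. Its log2 fold change was 0.046 ± 0.16 for tRNA against empty and 0.10 ± 0.16 for hairpin against empty. All 3 activators were higher on hairpin arrays than on empty arrays, by 0.012 to 0.24 on the log2 scale, with no unadjusted p under 0.05.

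E2F7, an atypical E2F that represses E2F targets, was the only repressor or partner with such a p. For E2F7 the hairpin arrays gave 3193, 2946, 3011 and 2753, the tRNA arrays 2663, 2688, 2426 and 2540.1 and the empty arrays 2903, 3013, 2748 and 2800.4. All 4 tRNA arrays lay below all 4 hairpin arrays and all 4 empty arrays. The log2 fold change was 0.21 ± 0.075 for hairpin against tRNA (unadjusted limma p = 0.0160) and -0.15 ± 0.075 for tRNA against empty (p = 0.0621), and the exact permutation p was 0.0286 in both, the smallest that 4 against 4 arrays allow. The other E2F7 probe set, far less precise, gave -0.15 ± 0.45 and 0.032 ± 0.45, the opposite signs. The 6 genes of E2F4 to E2F8 and TFDP1, the DP partner of the E2F factors, ranged from -0.15 to 0.12 for tRNA against empty and from -0.049 to 0.13 for hairpin against empty.

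The cyclins and kinases of G1 differed little between vectors. CCND1 had signals of 227, 205, 162 and 241 on hairpin arrays, 197, 248, 151 and 175 on tRNA arrays and 245, 202, 221 and 169.9 on empty arrays. CCND1 encodes cyclin D1, and its probe set was dim, so that the interval of the log2 fold change was wide, -0.59 to 0.32 for tRNA against empty. The CCND2 signal was 3129, 3892, 4274 and 4616 on the hairpin arrays, against 3086, 3722, 4421 and 4850.4 on the tRNA arrays and 3157, 3499, 4224 and 4606 on the empty arrays. CCND2, another D cyclin, differed far more within each vector than between vectors, as described under replicate numbers. For CCND3 the hairpin arrays gave 1647, 1280.3, 1297 and 1454, the tRNA arrays 1514, 1318, 1351 and 1306 and the empty arrays 1435, 1236, 1252 and 1311. CCND3, a further D cyclin, had the smallest p of the 8 genes of this group, at 0.11 ± 0.10 for hairpin against empty (exact permutation p = 0.257). CCNE1 had signals of 1229, 1257, 1413 and 1309 on hairpin arrays, 1322, 1184, 1397 and 1436 on tRNA arrays and 1245, 1443, 1341 and 1223 on empty arrays. The CDK4 signal was 7813, 7513, 7423 and 7368 on the hairpin arrays, against 7407, 9039, 7626 and 7489 on the tRNA arrays and 7942, 8431, 7355 and 7043 on the empty arrays. CCNE1 encodes cyclin E1, the partner of CDK2, and CDK4 the kinase of the D cyclins. Their log2 fold changes lay between -0.063 and 0.035 in all 3 comparisons, and their groups overlapped. The tRNA array 2 of CDK4 stood above the other 11. Over the 8 genes, log2 fold changes ran from -0.13 to 0.068 for tRNA against empty, from -0.068 to 0.11 for hairpin against empty and from -0.088 to 0.13 for hairpin against tRNA.

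CDC25A, the phosphatase that removes the inhibitory phosphates from CDK2 at the G1/S transition, was highest on the hairpin arrays. For CDC25A the hairpin arrays gave 9272, 8962, 9928 and 9983, the tRNA arrays 8804, 7222, 8434 and 8495 and the empty arrays 8517, 6589, 8842 and 8427. All 4 hairpin arrays lay above the 8 others, by a fold of 1.18 over the empty arrays. The log2 fold change was 0.24 ± 0.096 against empty (unadjusted limma p = 0.0230) and 0.21 ± 0.096 against tRNA (p = 0.0428), with an exact permutation p of 0.0286 for each. Without empty array 2, the lowest, the value against empty was 0.15. The higher hairpin signal was not shared by its other probe sets, which gave -0.087 ± 0.14 and -0.13 ± 0.47 for hairpin against empty. CDKN1B, the inhibitor p27 of cyclin E with CDK2, had a log2 fold change of -0.19 ± 0.099 for tRNA against empty (exact permutation p = 0.0857), and SKP2, the F-box protein that marks p27 for destruction, one of 0.041.

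Among classical E2F targets of S phase no gene had an unadjusted p under 0.05 between vectors. RRM2 had signals of 5649.5, 6392, 6006 and 5273 on hairpin arrays, 5993, 5774, 6240.4 and 5683 on tRNA arrays and 5352, 6229, 6117 and 5133 on empty arrays. RRM2, the small subunit of ribonucleotide reductase, overlapped across the groups, and its second probe set pointed the same way in all 3 comparisons. The 5 genes, with RRM1, TYMS, TK1 and UHRF1, ranged from -0.027 to 0.082 for tRNA against empty, from -0.076 to 0.086 for hairpin against empty and from -0.049 to 0.032 for hairpin against tRNA. G1/S genes with an E2F site in the promoter had a median of 0.031 for tRNA against empty, against 0.029 for those without, and 0.019 against 0.0067 for hairpin against empty (7 and 12 genes). For hairpin against tRNA the medians were 0.059 with the site and -0.0025 without it.

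Of the mitotic cyclins, CDK1 and their phosphatases, 5 of 6 had a lower mean than on empty arrays with each vector, none with an unadjusted p under 0.05 at the brightest probe set, though a second probe set of CCNA2 and one of CDK1 had such a p. The CCNA2 signal was 3601, 4863, 4709 and 4819.7 on the hairpin arrays, against 3595, 5316, 4828 and 4538 on the tRNA arrays and 3949, 4946, 4676 and 4870.1 on the empty arrays. For CCNB1 the hairpin arrays gave 7940.0, 5895, 5922 and 5533, the tRNA arrays 7216, 5928, 5639 and 5793 and the empty arrays 7614, 6441, 5908 and 5460.2. CDK1 had signals of 9559, 9212, 9312 and 9481 on hairpin arrays, 10304, 9113, 9165 and 9351 on tRNA arrays and 11014, 8782, 9053 and 10057 on empty arrays. CCNA2 and CCNB1 encode cyclins A2 and B1, and CDK1 is the kinase they activate for entry into mitosis. In both cyclins array 1 stood apart from arrays 2 to 4 in every vector, low in CCNA2 and high in CCNB1, whereas the vectors overlapped at these probe sets. The log2 fold changes of the 3 genes lay between -0.045 and 0.034. The second tested CCNA2 probe set, dimmer than the first, gave other results. It read 3014, 2771, 2621 and 2718 on hairpin arrays, 2201, 1899, 2135 and 2632 on tRNA arrays and 2866, 2656, 2829 and 2855 on empty arrays. All 4 tRNA arrays lay below all 4 empty arrays, a fold of 0.786, and tRNA array 4 alone lay above the lowest hairpin array. The log2 fold change of this CCNA2 probe set was -0.35 ± 0.096 for tRNA against empty (unadjusted limma p = 0.00265, exact permutation p = 0.0286) and 0.34 ± 0.096 for hairpin against tRNA (p = 0.00339, exact permutation p = 0.0571), with a limma adjusted p of 1.000 in both. It was negative for tRNA against empty within number 1 (-0.38), number 2 (-0.48) and numbers 3 and 4 (-0.26). Since the brightest CCNA2 probe set did not show this, the transcript has no settled difference between vectors. A further CDK1 probe set read 4810, 4839, 5584 and 5381 on hairpin arrays, 5359, 5578, 5834 and 5658 on tRNA arrays and 5724, 6549, 5768 and 5441 on empty arrays. Its hairpin arrays were low but overlapped the empty ones, with a log2 fold change of -0.19 ± 0.078 for hairpin against empty (unadjusted limma p = 0.0310, exact permutation p = 0.0571). The CDC25C signal was 1811, 1278, 1369 and 1577 on the hairpin arrays, against 1535, 1314, 1386 and 1349 on the tRNA arrays and 1754, 1416, 1573 and 1470.4 on the empty arrays. CDC25C, a phosphatase that activates CDK1, gave the largest difference of this group, -0.15 ± 0.12 for tRNA against empty (exact permutation p = 0.114), and its other tested probe set had the opposite sign. CDC25B, CCNB2 and these 4 genes ranged from -0.15 to 0.057 for tRNA against empty and from -0.097 to 0.0026 for hairpin against empty.

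By brightest probe set, the smallest p of the 59 genes belonged to a mitotic kinase; only the second CCNA2 probe set had smaller ones. AURKB is the kinase of the chromosomal passenger complex, which corrects faulty attachments of chromosomes to the spindle. For AURKB the hairpin arrays gave 4507, 3571, 2774 and 3183, the tRNA arrays 4481, 4976, 3726 and 4076 and the empty arrays 3649.6, 2999.8, 3083 and 2764. All 4 tRNA arrays lay above all 4 empty arrays, a fold of 1.38, and the hairpin arrays spanned both. The log2 fold change was 0.46 ± 0.14 for tRNA against empty (unadjusted limma p = 0.00464, exact permutation p = 0.0286, limma adjusted p = 1.000) and -0.31 ± 0.14 for hairpin against tRNA (unadjusted p = 0.0401, exact permutation p = 0.143). It was positive within number 1 (0.30), number 2 (0.73) and numbers 3 and 4 (0.42). No second AURKB probe set was bright enough to be tested. INCENP had signals of 101, 154, 314 and 257 on hairpin arrays, 246, 225, 385 and 309.9 on tRNA arrays and 154, 133, 245 and 229.8 on empty arrays. INCENP, the scaffold that binds and activates AURKB, gave a log2 fold change of 0.63 ± 0.33 for tRNA against empty (exact permutation p = 0.114) and -0.60 ± 0.33 for hairpin against tRNA (exact permutation p = 0.257), in the same directions as AURKB. The tRNA array was above the empty array in 4 of 4 same-number pairs, but the groups overlapped, and arrays 3 and 4 were the high ones in every vector. The other passenger genes were not alike. BIRC5, or survivin, had a log2 fold change of 0.042 for tRNA against empty, and CDCA8, or borealin, named here after its value was seen, one of -0.15 ± 0.072.

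The AURKA signal was 4302, 4482, 4090.2 and 4486 on the hairpin arrays, against 5446, 4740.0, 4281 and 4431 on the tRNA arrays and 5229.8, 5239.5, 4506 and 5289 on the empty arrays. AURKA, the Aurora kinase of the spindle poles, had its lowest mean on hairpin arrays, all 4 of which lay below all 4 empty arrays, a fold of 0.858. Its log2 fold change was -0.22 ± 0.087 for hairpin against empty (unadjusted limma p = 0.0235, exact permutation p = 0.0286), and the other tested AURKA probe set gave -0.14 ± 0.081. For PLK1 the hairpin arrays gave 2099.9, 2438, 1889.6 and 2263, the tRNA arrays 2509.9, 2325, 2037 and 1934 and the empty arrays 2276, 2339, 2433 and 1763. PLK1, the Polo kinase of mitotic entry, overlapped between groups, with log2 fold changes of 0.0025, -0.015 and -0.018 for tRNA against empty, hairpin against empty and hairpin against tRNA. All 5 genes of this role were lower on hairpin than on tRNA arrays, from -0.018 to -0.60, and only AURKB had an unadjusted p under 0.05.

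**Figure D3:**
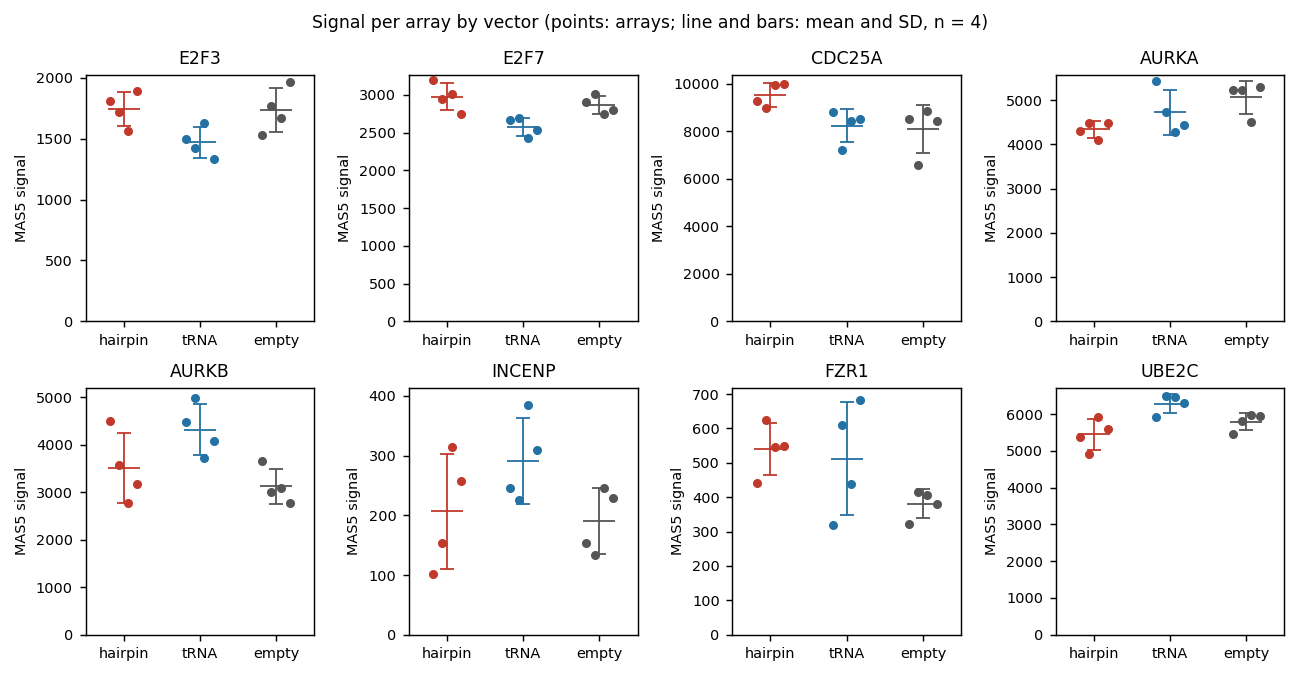
MAS5 signal (linear axis from 0) of 8 genes on the hairpin, tRNA and empty arrays; each point is 1 array, the line the mean and the bars the SD of 4 arrays. E2F7 has its tRNA points and CDC25A its hairpin points clear of the other groups, AURKB has its tRNA points above its empty points, and INCENP and FZR1 spread widely within groups.

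Genes of the spindle checkpoint, which delays anaphase until every chromosome is attached, stayed close to the empty vector. BUB3 had signals of 9119.5, 10192, 10864 and 10015 on hairpin arrays, 9288, 8792, 10048 and 10053 on tRNA arrays and 8413, 9239.6, 9299 and 9141 on empty arrays. BUB3 binds BUB1 and BUBR1 at kinetochores. It had the smallest p of the 5 genes, at 0.15 ± 0.074 for hairpin against empty (exact permutation p = 0.114), with 2 of its 4 other probe sets in the same direction. The 5 genes, with BUB1, BUB1B, MAD2L1 and TTK, ranged from -0.12 to 0.080 for tRNA against empty and from -0.060 to 0.15 for hairpin against empty.

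Factors of the anaphase-promoting complex, the ubiquitin ligase that ends mitosis, held 2 genes with a small unadjusted p. The FZR1 signal was 440.5, 624, 545 and 548 on the hairpin arrays, against 318, 609, 438 and 682 on the tRNA arrays and 323, 416, 406 and 379 on the empty arrays. FZR1, or CDH1, is the activator of that ligase in late mitosis and G1. Its hairpin arrays all lay above its empty arrays, a fold of 1.41, and its tRNA arrays were spread over both. The log2 fold change was 0.50 ± 0.21 for hairpin against empty (unadjusted limma p = 0.0323, exact permutation p = 0.0286). The probe set was fairly dim, and of the 3 other FZR1 probe sets 1 pointed the same way, at 0.22 ± 0.28, and 2 the other, at -0.25 ± 0.21 and -0.35 ± 0.29. For UBE2C the hairpin arrays gave 5368, 4922, 5928 and 5584, the tRNA arrays 5913, 6493, 6449 and 6287 and the empty arrays 5461, 5799, 5973 and 5954. UBE2C, the ubiquitin-conjugating enzyme of the complex, was lower on the hairpin array than on the tRNA array in 4 of 4 same-number pairs, with 1 hairpin array above the lowest tRNA array. Its log2 fold change was -0.21 ± 0.073 for hairpin against tRNA (unadjusted limma p = 0.0127, exact permutation p = 0.0571), and it has no other probe set. CDC20 had signals of 4665, 4964, 5303 and 5028 on hairpin arrays, 4859, 5295, 4763 and 4847 on tRNA arrays and 5430.4, 4433, 5231 and 5048 on empty arrays. CDC20, the activator of the complex at the start of anaphase, had log2 fold changes of -0.024, -0.011 and 0.014 for tRNA against empty, hairpin against empty and hairpin against tRNA. PTTG1, or securin, and ESPL1, or separase, had log2 fold changes of 0.093 and 0.0042 for tRNA against empty.

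At centromeres and on the spindle no gene had an unadjusted p under 0.05. The CENPE signal was 2758, 3169.7, 3305 and 3232 on the hairpin arrays, against 2638, 3273, 2747 and 2838 on the tRNA arrays and 2796, 3405, 2952 and 3132 on the empty arrays. CENPE is a kinetochore motor, and its log2 fold change was 0.12 ± 0.094 for hairpin against tRNA (exact permutation p = 0.286). CENPA, CENPE, CENPF and NDC80 ranged from -0.13 to 0.027 for tRNA against empty and from -0.033 to 0.044 for hairpin against empty. For KIF23 the hairpin arrays gave 1786, 1826, 1727 and 2000.3, the tRNA arrays 2082, 1924, 1939.9 and 1539 and the empty arrays 1606, 1717, 1874 and 1659. KIF23, a motor of the central spindle, had 0.12 ± 0.10 for tRNA against empty (exact permutation p = 0.343). The 6 genes KIF11, KIF20A, KIF23, TPX2, NUSAP1 and PRC1 ranged from -0.069 to 0.12 for tRNA against empty and from -0.065 to 0.099 for hairpin against empty.

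FOXM1 and MYBL2, the factors that transcribe G2/M genes, and MKI67, the gene of the proliferation marker Ki-67, had lower means with both vectors than with the empty one, within the spread of the arrays. FOXM1 had signals of 2594, 2233, 2266 and 2419 on hairpin arrays, 2646, 2454, 2546 and 2355 on tRNA arrays and 2831, 2787, 2632 and 2344 on empty arrays. The MYBL2 signal was 3652, 6668, 5505 and 5242 on the hairpin arrays, against 3659.5, 6519, 5206 and 5597 on the tRNA arrays and 4459.9, 5945, 5996 and 5441 on the empty arrays. For MKI67 the hairpin arrays gave 3622, 4949, 4907 and 4544, the tRNA arrays 4167, 5309, 4854 and 4486 and the empty arrays 4582, 5185, 5124 and 4799.6. The groups overlapped in all 3 genes. For FOXM1 the log2 fold change was -0.080 ± 0.086 for tRNA against empty and -0.15 ± 0.086 for hairpin against empty (exact permutation p = 0.114). Over the 3 genes it was -0.080 to -0.070 for tRNA against empty and -0.15 to -0.075 for hairpin against empty. G2/M genes with a CHR element in the promoter had a median of -0.012 for tRNA against empty, against -0.033 for those without, and -0.015 against -0.020 for hairpin against empty (17 and 10 genes). For hairpin against tRNA the medians were -0.012 with the element and -0.0077 without it.

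The replicate number went with differences that passed the test. The tests of number and vector are unlike, since number was tested beside vector and the vectors were compared without number. With number added to the vector fit as a block, 0 cell cycle probe sets were called in each comparison. An unadjusted limma p under 0.05 then went with 6 of 59 genes for tRNA against empty, where 9.12% of all genes had such a p. It went with 7 for hairpin against empty, where 5.85% had, and with 7 for hairpin against tRNA, where 9.37% had. An F test of number beside vector (limma, Benjamini-Hochberg adjustment over all probe sets at 0.05) called 13 of 59 genes, against 14.0% of all genes tested: 5 of 25 G1/S genes and 8 of 34 G2/M genes. This is a share of 22.0%, in a set measured with a smaller error than most genes. Over the 117 tested probe sets of these genes 31 were called, against 15.8% of all tested probe sets, and 10 in a fit without an intensity trend, against 5.64%. Without the 3 arrays numbered 1, a fit added after the data were seen, 9 probe sets differed among numbers 2 to 4, against 3.34% of all probe sets, and 4 of 59 genes (CCND2, CDC25A, UHRF1 and INCENP), against 2.97% of all genes. The contrast of numbers 3 and 4 with numbers 1 and 2 was chosen with earlier results of these data known. It found 3 genes higher, against 4.52% of all genes, and 7 lower, against 5.71%. The 3 higher were CCND2, INCENP and E2F4, and the 7 lower CCNB1, TYMS, CCNB2, AURKB, NDC80, E2F5 and E2F6. The range of the 4 number means was larger than the range of the 3 vector means in 51 of 59 genes, with medians of 0.22 and 0.088 on the log2 scale, against 0.35 and 0.18 over all genes. The first range spans 4 means of 3 arrays each and the second 3 means of 4 arrays each, which by itself widens the first. The count of 51 was not made over all genes, so it has no background share here.

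CCND2 had the smallest p by brightest probe set (limma adjusted p = 1.37e-04). Its means were 3124 for number 1, 3704 for number 2, 4306 for number 3 and 4691 for number 4, and its 4 sets of 3 arrays did not overlap. Of its 3 other probe sets, all dim, 3 shared the sign of number 1 minus the others and 0 were called. MYBL2, which encodes B-MYB, averaged 3924 for number 1, 6377 for number 2, 5569 for number 3 and 5426 for number 4 (limma adjusted p = 3.18e-04). Its arrays numbered 1 lay below the other 9.

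Cyclins A2 and B1 went opposite ways. CCNB1 averaged 7590.0 for number 1 and 6088, 5823 and 5595 for numbers 2, 3 and 4 (limma adjusted p = 0.00124), while CCNA2 averaged 3715 for number 1 and 5042, 4738 and 4743 for the others (limma adjusted p = 0.00183). The second CCNB1 probe set shared the sign of number 1 minus the others, at 0.34 on the log2 scale against 0.38, and the second CCNA2 probe set did not, at 0.067 against -0.38. TYMS, thymidylate synthase, averaged 13866 for number 1 and 12190.0, 11041 and 11224 for the others (limma adjusted p = 0.00490). Its second probe set was also called and went the other way, at -0.33 against 0.27, so TYMS has no settled direction here. MKI67 averaged 4124 for number 1, 5148 for number 2, 4962 for number 3 and 4610 for number 4 (limma adjusted p = 0.0206), and its 3 other probe sets shared the sign for number 1.

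Probe sets other than the brightest were called as well, 18 of 58, against 15.8% of all tested probe sets. Of these, 3 had a smaller p than CCND2. The 18 probe sets belong to 16 genes, 14 of which were not called at their brightest probe set. A second E2F3 probe set averaged 651 for number 1, 1123 for number 2, 2082 for number 3 and 1832 for number 4 (limma adjusted p = 4.17e-06), whereas the brightest E2F3 probe set averaged 1612, 1637, 1622 and 1727. One of ESPL1 averaged 1812, 1652, 2420.4 and 2697 in the same order (limma adjusted p = 7.53e-05), and one of NUSAP1, a spindle protein, 1664, 2037, 3474 and 3303 (limma adjusted p = 9.73e-05). Of the 18 probe sets, 16 were lower for number 1 than for the other numbers and 2 higher, and 16 were higher for numbers 3 and 4 than for 1 and 2 and 2 lower. These directions were not counted over all called probe sets, so they have no background share here.

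The 7 remaining genes called at their brightest probe set were NDC80, E2F4, INCENP, CCNB2, CDC25A, AURKB and E2F6, with limma adjusted p of 0.00987 to 0.0402. Of the 14 other tested probe sets of all the genes called, 9 shared the sign of number 1 minus the others and 2 were called. In 12 of 59 genes the 3 arrays numbered 1 did not overlap the other 9, against 11.3% of all genes. They lay above in E2F6, TYMS, RRM1, CCNB1, NDC80 and NUSAP1 and below in E2F4, CCND2, CCNA2, MAD2L1, TPX2 and MYBL2, so at the brightest probe sets neither set moved as a whole.

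Properties of the arrays moved with the number as well. The control RNAs added in labelling had a mean signal of 1726 to 1834 on the arrays numbered 1, 331 to 389 on those numbered 2 and 20.0 to 26.1 on those numbered 3 and 4. GAPDH probe sets at the 3′ and the 5′ end of the transcript, whose signal ratio reads RNA integrity, gave a ratio of 1.47 to 1.67 on the arrays numbered 1 and 1.18 to 1.39 on the other 9. Their part in the differences among numbers was not tested. Summed fibroblast markers, for the most part COL1A1, were 1179 to 1407 for number 1, 1245 to 1495 for number 2, 882 to 992 for number 3 and 1075 to 1137 for number 4. Their part was not tested either.

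**Figure D4:**
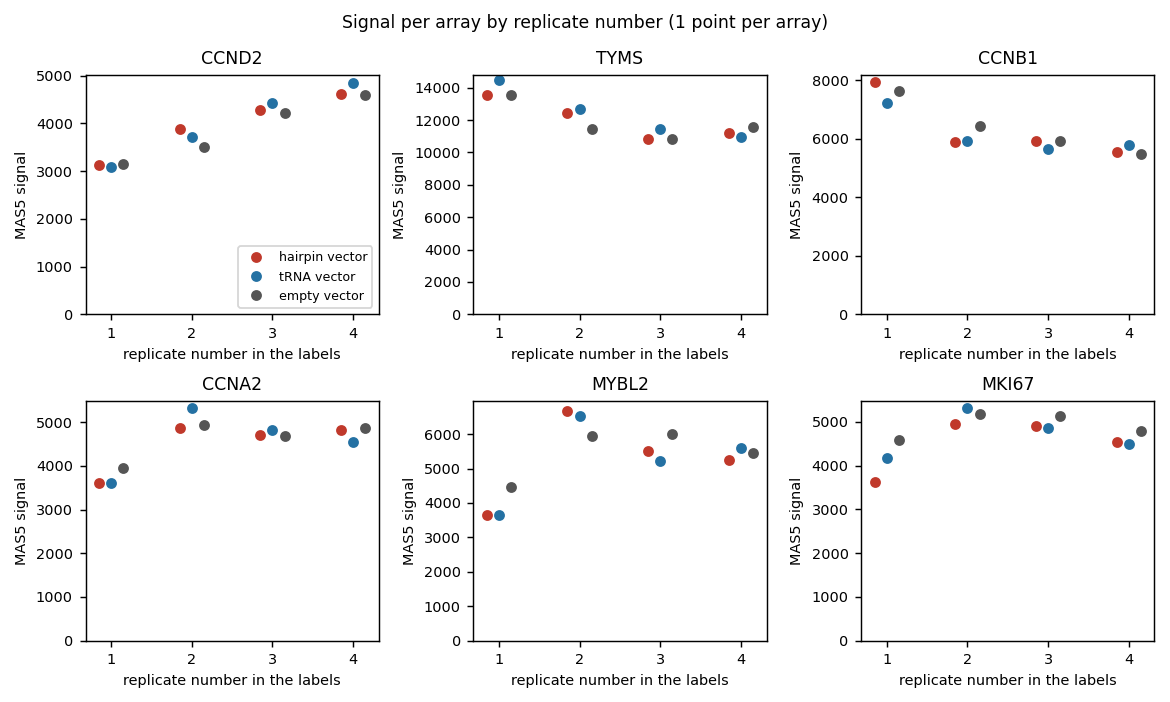
MAS5 signal (linear axis from 0) of 6 genes against the replicate number of the array, 1 point per array, coloured by vector. The 6 genes are among the 13 called by number. Arrays numbered 1, whatever their vector, lie below the other 9 in CCND2, CCNA2 and MYBL2 and above them in TYMS and CCNB1. In MKI67 they overlap the others.

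**Figure D5:**
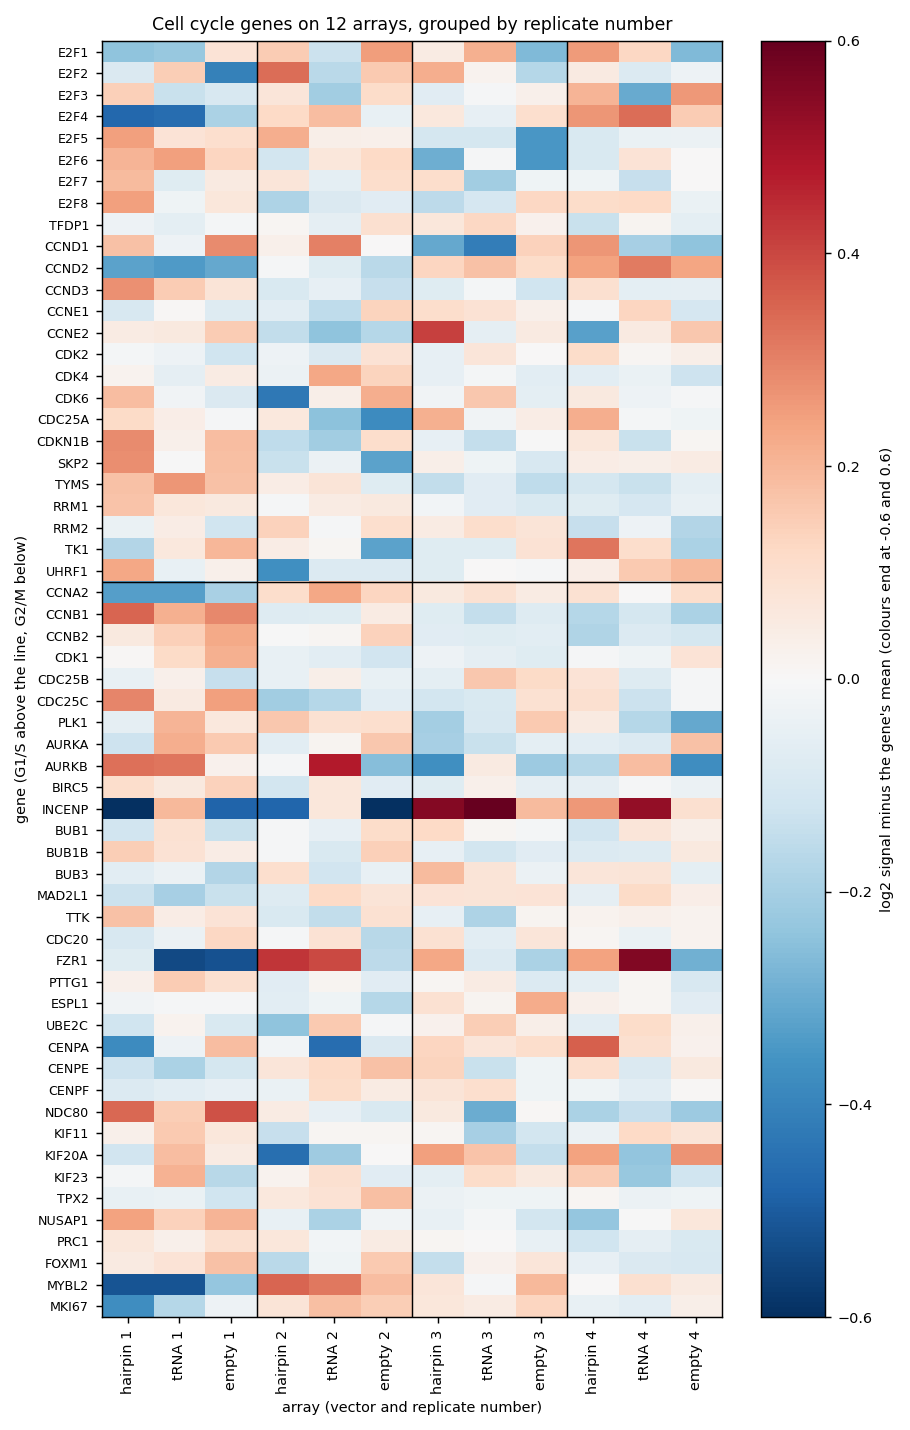
Log2 signal minus the mean of the gene (colour, ending at -0.6 and 0.6) for 59 genes in rows, G1/S above the line and G2/M below it, on 12 arrays ordered by replicate number and, within a number, hairpin, tRNA and empty. The first block of 3 columns, number 1, carries the strongest common colours, as in MYBL2, CCNA2 and CCNB1, and its 3 vectors share them.

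Further genes of the same pathways, 80 measured of 82 listed, gave no call between vectors either. At an unadjusted limma p under 0.05 there were 6 for tRNA against empty, 2 for hairpin against empty and 4 for hairpin against tRNA, against 4.26%, 2.74% and 4.56% of all genes, and 0 were called after adjustment. Their median log2 fold changes were -0.015, 0.0015 and 0.023. For tRNA against empty the smallest p-values belonged to CENPH, a kinetochore subunit (1665 ± 157 on tRNA arrays and 1217 ± 217 on empty arrays, SD of 4 arrays), and CDKN2B, the CDK4 and CDK6 inhibitor p15 (390 ± 32.1 on tRNA arrays and 542 ± 22.8 on empty arrays, SD). Their log2 fold changes were 0.46 ± 0.13 and -0.48 ± 0.15. Of the 8 measured genes of the retinoblastoma family and the CDK inhibitors, 7 were lower on tRNA than on empty arrays, with a median of -0.17, whereas 5 of 8 were higher on hairpin than on empty arrays. Over all genes, 50.7% and 51.2% were higher in these 2 comparisons. The median standard error of the 8 genes was 0.16, and 2 had an unadjusted limma p under 0.05 for tRNA against empty. No test was made of the list. For hairpin against empty the smallest p-values were those of ANAPC2, a subunit of the anaphase-promoting complex (0.43 ± 0.17), and LIN52, a MuvB subunit (-0.24 ± 0.11). For hairpin against tRNA they were those of MIS12, a kinetochore protein (-0.26 ± 0.080), and GMNN, or geminin, which blocks a second round of replication (-0.30 ± 0.11). By replicate number, 21 of the 80 genes (26.2%) were called, against 14.0% of all genes.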

How the data were processed

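RNA of 12 samples of 293T cells was measured on 1 type of oligonucleotide array, with 54675 probe sets. The authors deposited linear signal intensities, made with MAS5 per the submitters' processing notes. Its version, and a genome build for the probe sets, are not given in the sources used here. The authors' intensities have a 2% trimmed mean of 500.1 on each array. Symbols came from the platform annotation, updated by Entrez identifier to RefSeq, which changed 0 symbols.

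All tests used log2 of the signal, without an offset. Left out were controls and 21845 dim probe sets, whose mean log2 signal fell below the 40th percentile (a geometric mean of 43.3). This left 32768 probe sets and, with the brightest probe set of 1 symbol standing for a gene, 13952 genes. The 12 arrays entered 1 limma model with a mean per group (limma 3.58.1, R 4.3.3, lmFit followed by eBayes with trend), with Benjamini-Hochberg adjustment over all tested probe sets, two-sided, threshold 0.05. Unadjusted p-values are from that fit. Values after ± on a log2 fold change are its standard error, with 4 arrays per group. Replicate numbers were tested by an F test beside group. Single genes were compared by exact two-sided permutation of 8 arrays. The procedure was tested on simulated data.

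Genes given array by array were those with an unadjusted p under 0.05 in any comparison, the smallest p in each of 12 roles, 12 fixed genes and the 4 smallest p for replicate number. INCENP, CDCA8 and the further probe sets of CCNA2, CDK1, E2F3, ESPL1 and NUSAP1 were added after their values were seen. The members and all lists were chosen with earlier results of these data known. The labels call the replicates biological and do not say that they came from separate cultures, so p-values measure the spread between these samples. Alternatives were blocks for replicate number and for control RNA level, quantile normalization, an offset of 16, other filters, no trend, array weights, fits of 2 groups and leaving out arrays. Promoter windows were read from a RefSeq table with python 3.11.15. The sequence of CU1276 was not used here.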

Additional observations from a re-analysis of the deposited data

Results flagged for a closer look

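In 10 of 177 groups of 4 arrays (5.65%, where chance gives about 1 in 20), the highest or lowest array stood far from the others. This was measured as its gap to the nearest array over the range of the group, both on the log2 scale. The signals below are linear. Hairpin arrays did so in 2 genes. For CCNA2 array 1 was low, at 3601 against 4709 for the nearest (gap share 0.893), and for CDC25B array 4 was high, at 1835 against 1681 (0.896).

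Arrays of the tRNA vector did so in 4 genes. Array 2 was high for CDK4, at 9039 against 7626 (0.853), and for TPX2, at 6779.6 against 6283 (0.860). Array 1 was high for BUB1B, at 4966 against 4428 (0.834), and low for MAD2L1, at 5420.4 against 6585 (0.873).

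Arrays of the empty vector did so in 4 genes. Array 2 was low for CDC25A, at 6589 against 8427 (0.837), and array 3 was low for AURKA, at 4506 against 5229.8 (0.930). Array 1 was high for BIRC5, at 9219 against 8187 (0.846), and for PTTG1, at 10416 against 9282 (0.867). CDC25A and AURKA are among the genes with an unadjusted p under 0.05 for hairpin against empty. Without empty array 2 the log2 fold change of CDC25A was 0.15 in place of 0.24, and without empty array 3 that of AURKA was -0.28 in place of -0.22.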

How the results depend on the processing

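For the cell cycle genes no vector comparison gained a call. Of their tested probe sets (117 as reported, 129 without a filter), 0 passed in each of the 3 comparisons under all 22 settings tried. No gene or further probe set given array by array turned a direction larger than its standard error. Of 2222 values under alternatives, 2211 kept their verdict, by a rule that is easily met. A median kept it if it moved by less than its spread between arrays, 0.050 for G1/S and 0.030 for G2/M. That spread is larger than any of the medians. A gene kept it unless it crossed the threshold of 0.05 or reversed a change larger than its standard error. Signs that turned, in 27, 49 and 39 of 638 gene values per comparison, thus counted as kept. Without single arrays the log2 fold change for hairpin against empty was 0.15 to 0.29 for CDC25A, the lowest without empty array 2, and for tRNA against empty it was 0.47 to 0.77 for INCENP and -0.43 to -0.28 for the second CCNA2 probe set. Over all probe sets, the 0 calls became 6 for hairpin against tRNA with the replicate number as a block. With the control RNA level as a block they became 4 for tRNA against empty, 3 for hairpin against empty and 8 for hairpin against tRNA. Array weights gave 1 call for hairpin against tRNA, as did leaving out the 3 arrays numbered 1, which was chosen after seeing the data. With the replicate number as a block the lowest limma adjusted p of the 59 genes at their brightest probe set was 0.156 for tRNA against empty, 0.797 for hairpin against empty and 0.362 for hairpin against tRNA, and that of the second CCNA2 probe set was 0.257 for tRNA against empty and 0.227 for hairpin against tRNA.

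Only pairs of arrays from different vectors were compared here. Deviations of same-numbered arrays correlated at 0.0987 to 0.356 across probe sets, with 11 of 12 pairs above 0.1, against -0.231 to 0.148 for arrays of different number. Among arrays of the other vectors, 9 of 12 arrays correlated best with one of their own number. The labels do not say that numbers pair the arrays.

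Differences among numbers called 5190 probe sets as reported, 1847 without the intensity trend and 1096 without the arrays numbered 1. The cell cycle probe sets called were 31, 10 and 9. Leaving out 1 array gave 3221 to 5519 probe sets and 25 to 31 cell cycle ones, with the lowest count of all probe sets without hairpin array 1. The cause was not tested. A dim probe set limits precision, as in INCENP, CCND1 and FZR1, and 4 arrays a group leave 0.0286 as the smallest exact p.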
